A study of Mus musculus with 59 samples.

Results

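Ppara encodes PPAR alpha, a nuclear receptor of the liver, and Cyp4a10, Cyp4a14, Acot1, Acot3, Acot4, Vnn1, Fgf21, Angptl4 and Pdk4 are genes that this receptor is known to induce. These 10 genes were chosen by name, with their changes in E2F3b knock-in livers already known from earlier results of the same arrays. The comparisons of those livers are therefore given as descriptions with no p-value. A gene was measured by the probe sets annotated to its symbol alone. By this rule 9 of the 10 genes were found, with 14 probe sets, among 18193 genes with 34945 such probe sets. The only probe set of Cyp4a10 is annotated to Cyp4a31 as well, and Cyp4a10 was therefore not measured. Where a gene had several probe sets, the one with the highest mean over the arrays stands for it, and the others are given beside it.

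PPAR alpha is switched on by fatty acids, above all in fasting, when fat arrives in the liver from adipose tissue. It binds DNA together with a retinoid X receptor at direct repeats of the half-site AGGTCA with 1 base between them, and it raises genes of fatty acid oxidation in peroxisomes and mitochondria. In mouse liver its targets include the omega-hydroxylases of the Cyp4a family, the acyl-CoA thioesterases, and the secreted proteins FGF21 and ANGPTL4. Many of them sit at low levels in fed animals and rise in fasting or after fibrate drugs.

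The study compared livers of 4-week-old mice (1 month) that carried an E2F1 knock-in (1KI), an E2F3b knock-in (3bKI) or an E2f3a knock-out (3aKO) with wild-type livers (wt), all of mixed strain, from FVB/NT, 129S1/Svlmj and C57BL/6NT. E2F1, E2F3a and E2F3b are transcription factors of the cell cycle. The labels give neither the locus and promoter of the knock-ins nor the feeding state of the mice or the hour of collection, and they do not say whether the knock-in livers also lack E2f3a. Total RNA of 37 liver samples was hybridized to 37 expression arrays, and the deposited values are log2 expression values in 2 normalizations. The first holds 10 1KI, 10 3aKO and 12 wt arrays, and the second holds 5 3bKI arrays with the same 3aKO and wt arrays normalized anew, and no comparison between 1KI and 3bKI was made. The labels number the samples and do not say whether each is a separate animal, so p-values cover the spread between the samples at hand. Where livers are counted, numbered liver samples are meant. In a bulk liver sample, fewer cells of a type and less RNA per cell cannot be told apart. All comparisons with wt use the same 12 wt livers, and those with 3aKO the same 10 3aKO livers.

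At the targeted genes, E2f3 lay between 7.50 and 7.97 (median 7.72) in 3aKO and between 7.70 and 8.29 (median 8.00) in wt, with all 10 3aKO arrays below the wt mean and a log2 change of -0.25 ± 0.07 (SE) that did not pass (limma, adjusted p = 0.134). E2f3 was lower in 3bKI against wt (-0.24 ± 0.09, past the threshold), and it was higher in 1KI against 3aKO (0.22 ± 0.07, adjusted p = 0.0217). E2f1 did not stand higher in the livers labelled E2F1 knock-in: its change was -0.25 ± 0.11 (adjusted p = 0.0864) in 1KI against wt, and it fell by 0.29 ± 0.11 in 1KI against 3aKO (adjusted p = 0.0494). No source here says whether these probe sets cover the deleted or inserted parts, so the genotypes are those of the labels, and each direction given for 1KI is that of the livers so labelled. The arrays fell into 2 levels of the hybridization controls, which are spiked in before hybridization. The 1KI arrays averaged 11.3 ± 0.24 (SD), the 3aKO arrays 10.2 ± 0.12 and the wt arrays 10.4 ± 0.50 on the log2 scale, and the 3bKI arrays averaged 11.6 ± 0.29. All 1KI and 3bKI arrays were at the high level with 2 wt arrays (replicates 1 and 2), and the other 10 wt and all 3aKO arrays were at the low level. The 3' minus 5' difference of Gapdh and Actb, which grows as RNA degrades, was 1.75 in 1KI replicate 6, at most 0.745 in any 3aKO or wt array, and 0.314 ± 0.038 (SD) in 3bKI against 0.559 ± 0.050 in wt. Poly-A controls stood at 13.8 in 3bKI and 9.04 in wt. Of 11 measured hepatocyte markers 1 (Ass1) was called in each knock-in comparison and 0 in 3aKO against wt (by limma), with list means between 13.74 and 13.99 in every array of the first normalization. Of 5 measured fat tissue markers 0 were called in any comparison (limma), with at most 1 at an unadjusted p under 0.05 and list means between 5.22 and 5.68 over both normalizations. Adipoq, Lep and Ucp1 reached at most 4.02, 4.25 and 4.90, whereas Retn reached 7.42 and Fabp4 8.87. Muscle markers (mean of 4 genes) stood at 9.30 in 1KI replicate 4 and at 6.43 in wt replicate 7, and at 5.81 or lower in all other arrays of that normalization. Of 8 Kupffer cell markers 4 (Csf1r, Vsig4, Marco and Timd4) fell in 1KI against 3aKO, where 19.0% of all genes fell. The part of these markers in the results was not tested.

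The thioesterase genes Acot1, Acot4 and Acot3 are neighbours in a cluster on chromosome 12, in the order Acot2, Acot1, Acot4, Acot3, Acot5, Acot6. Their promoters are shown because the group's calls at the main probe sets fell differently on these neighbours. Whether the changes of the 3 genes differ from each other was not tested. Acot3 was called in 1KI against wt, Acot1 in 1KI against 3aKO and Acot4 in neither. At its second probe set (1422077_at) Acot4 passed in 1KI against wt as well (-0.68 ± 0.19, SE, limma, adjusted p = 0.00717). RefSeq sequences of the GRCm38.p6 build run from 250 bases before to 50 bases after the gene start, on the + strand, at chr12:84009252-84009551 for Acot1, chr12:84038129-84038428 for Acot4 and chr12:84051894-84052193 for Acot3. Capitals mark the half-site AGGTCA, searched on both strands, here in its reverse complement.
Acot1: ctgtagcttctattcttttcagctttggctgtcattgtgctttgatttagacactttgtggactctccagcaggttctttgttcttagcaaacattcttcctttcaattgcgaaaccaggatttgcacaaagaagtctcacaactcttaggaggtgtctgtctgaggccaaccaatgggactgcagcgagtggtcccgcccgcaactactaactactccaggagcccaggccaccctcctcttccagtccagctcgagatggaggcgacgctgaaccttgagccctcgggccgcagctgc
Acot4: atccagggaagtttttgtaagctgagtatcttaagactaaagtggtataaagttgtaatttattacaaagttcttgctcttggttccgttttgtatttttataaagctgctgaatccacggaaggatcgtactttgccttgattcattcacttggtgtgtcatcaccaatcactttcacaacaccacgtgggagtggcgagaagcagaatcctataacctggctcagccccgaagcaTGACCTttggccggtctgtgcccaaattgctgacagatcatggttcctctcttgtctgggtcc
Acot3: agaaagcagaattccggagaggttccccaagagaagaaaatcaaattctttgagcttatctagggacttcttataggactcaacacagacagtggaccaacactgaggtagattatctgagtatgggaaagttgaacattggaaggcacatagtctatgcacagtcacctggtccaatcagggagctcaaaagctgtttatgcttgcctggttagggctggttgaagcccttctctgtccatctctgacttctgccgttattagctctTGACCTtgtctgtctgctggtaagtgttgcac

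Acot4 and Acot3 each held 1 half-site, at positions -13 and 18 relative to the gene start, and Acot1 held 0. A second RefSeq start of Acot3 (chr12:84051901-84052200, not printed) held 1 half-site at position 11. Among all 32851 RefSeq promoters, 16.3% held at least 1. The closest match to a direct repeat of AGGTCA with 1 base between had 2 mismatches in Acot4, which 3.86% of all promoters reached or bettered, 3 in Acot3 (24.6%) and 4 in Acot1. RefSeq promoters were also at hand for Ppara, Fgf21 and Pdk4, which held 0 half-sites in this window, and Cyp4a14, Vnn1 and Angptl4 had no entry. The matches describe these letters only.

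Ppara itself fell slightly in 1KI against 3aKO and passed in neither comparison with wt. Its main probe set (1449051_at) gave 11.09 to 11.91 (median 11.39) in 1KI, 11.44 to 11.93 (median 11.69) in 3aKO and 11.34 to 11.77 (median 11.58) in wt. The 3 groups overlapped, with 1KI lowest, and 9 of 10 1KI arrays lay below the 3aKO mean. Ppara fell by 0.28 ± 0.08 (log2 change ± SE) in 1KI against 3aKO (limma with Benjamini-Hochberg adjustment over all genes, adjusted p = 0.0066). The change was -0.15 ± 0.08 in 1KI against wt (adjusted p = 0.126, and -0.21 with adjusted p = 0.0184 without 1KI replicate 10) and 0.12 ± 0.08 in 3aKO against wt (adjusted p = 0.524). The probe sets of Ppara did not move alike. In 1KI against wt, 1439675_at fell by 0.24 ± 0.07 (adjusted p = 0.0142, all probe sets tested), whereas 1457721_at had a change of 0.20 ± 0.08 (adjusted p = 0.0563). In 1KI against 3aKO, 1439675_at fell as well (-0.24 ± 0.08, adjusted p = 0.0169) and 1457721_at had a change of 0.17 ± 0.08 (adjusted p = 0.118). With the 3 probe sets averaged, the change in 1KI against 3aKO was -0.12 and the call ended. Blocked on hybridization control level it was -0.08 (adjusted p = 0.855) and the call ended too.

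**Figure D1:**
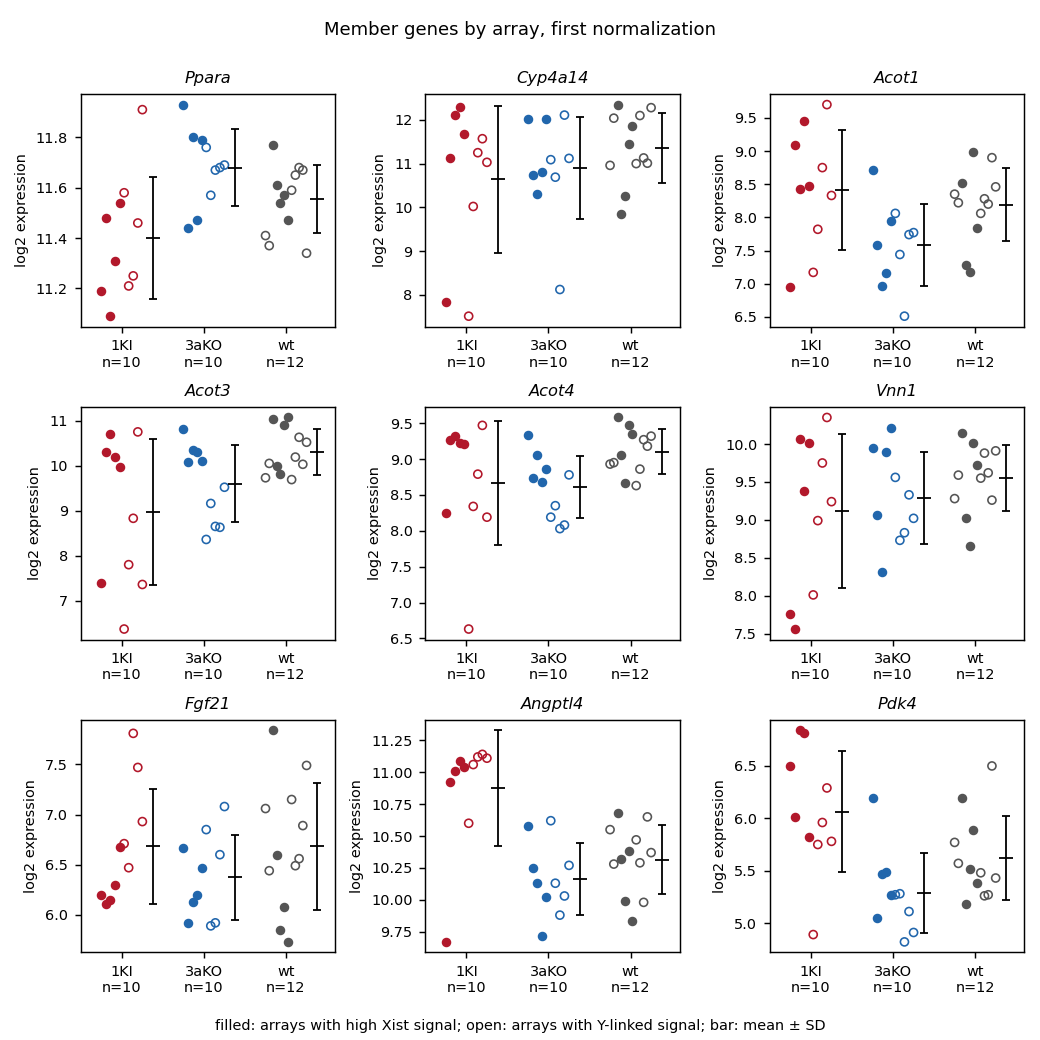
Log2 expression of the 9 genes by array in the first normalization (y axis), for 10 1KI, 10 3aKO and 12 wt livers. Points are arrays, filled for high Xist and open for Y-linked signal, and bars give mean ± SD. For Angptl4 9 of 10 1KI arrays lie above the wt mean, and for Cyp4a14 2 1KI arrays and 1 3aKO array lie far below the others.

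Cyp4a14 encodes a fatty acid omega-hydroxylase and is among the most inducible of the receptor's targets in mouse liver. It had the largest SD of the 9 genes in each of 1KI, 3aKO and wt. Its values ran from 7.51 to 12.29 (median 11.19) in 1KI, from 8.12 to 12.11 (median 10.95) in 3aKO and from 9.85 to 12.35 (median 11.30) in wt. The groups overlapped over nearly their whole range, with the lowest values in 1KI replicates 6 (7.51) and 1 (7.83) and in 3aKO replicate 8 (8.12). The SD was 1.69 in 1KI, 1.16 in 3aKO and 0.80 in wt. Cyp4a14 did not pass in any tested comparison, with a log2 change of -0.72 ± 0.50 (SE) in 1KI against wt (adjusted p = 0.294), -0.26 ± 0.52 in 1KI against 3aKO (adjusted p = 0.75) and -0.46 ± 0.50 in 3aKO against wt (adjusted p = 0.758). In 1KI against wt the change was -0.37 without 1KI replicate 6, the array with the high 3' minus 5' difference, and -0.40 without replicate 1. Cyp4a10, Cyp4a31 and Cyp4a32 lie beside it on chromosome 4. The probe set is annotated to Cyp4a14 alone, and whether it detects their RNA was not tested.

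The thioesterase genes Acot1, Acot3 and Acot4 encode enzymes that release fatty acids from coenzyme A, Acot1 in the cytosol and Acot3 and Acot4 in peroxisomes. Acot3, measured by a single probe set (1422925_s_at), was the gene that fell in 1KI against wt. It ran from 6.37 to 10.75 (median 9.40) in 1KI, from 8.36 to 10.82 (median 9.80) in 3aKO and from 9.69 to 11.07 (median 10.12) in wt. The 1KI arrays spread more widely than the others, with 7 of 10 below the wt mean and 3 above it. Acot3 fell by 1.33 ± 0.43 (log2 change ± SE, a 2.52-fold difference of means) in 1KI against wt (limma, adjusted p = 0.0181). Without 1KI replicate 6, its lowest array, the change was -1.05 (adjusted p = 0.0458). At the high hybridization control level, where 10 1KI arrays stand against wt replicates 1 and 2, it was -0.92 (adjusted p = 0.548, not passed). In 1KI against 3aKO (-0.63 ± 0.44, adjusted p = 0.302) and in 3aKO against wt (-0.71 ± 0.43, adjusted p = 0.521) the gene did not pass.

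Acot4 gave 6.63 to 9.47 (median 9.00) in 1KI, 8.03 to 9.33 (median 8.71) in 3aKO and 8.63 to 9.58 (median 9.12) in wt at its main probe set (1422076_at). The lowest value, 6.63, belongs to 1KI replicate 6. The log2 change was -0.44 ± 0.23 (SE, adjusted p = 0.155) in 1KI against wt and -0.21 without that array. It was 0.06 ± 0.24 (adjusted p = 0.879) in 1KI against 3aKO, 0.29 without the same array, and -0.50 ± 0.23 (unadjusted p = 0.0367, adjusted p = 0.384 by limma) in 3aKO against wt. Its second probe set (1422077_at) fell by 0.68 ± 0.19 in 1KI against wt (adjusted p = 0.00717), and with both averaged the gene passed there (-0.56, adjusted p = 0.0399). Acot1 gave 6.95 to 9.70 (median 8.45) in 1KI, 6.51 to 8.72 (median 7.67) in 3aKO and 7.18 to 8.98 (median 8.25) in wt. It stood lowest in 3aKO, with 9 of 10 arrays below the wt mean (-0.60 ± 0.28, unadjusted p = 0.0386, adjusted p = 0.388 by limma). Acot1 rose by 0.83 ± 0.29 (SE) in 1KI against 3aKO (adjusted p = 0.0283), with 8 of 10 1KI arrays above the 3aKO mean. That call held in 27 of 32 fits that left out 1 array. It ended without 3aKO replicates 3 or 8 or 1KI replicates 2, 4 or 9, with adjusted p up to 0.0643 and changes no lower than 0.68, and when blocked on hybridization control level (0.71, adjusted p = 0.612). In 1KI against wt Acot1 did not pass (0.23 ± 0.28, adjusted p = 0.579), and its difference from Acot3 there was not tested.

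Acot3 also differed with the Xist and Y-linked signal of the livers in some groups, which is given without a test. The share of all genes whose arrays separate in this way was not counted, and groups this small can separate by chance. In 3aKO the 5 arrays with high Xist gave 10.07 to 10.82 and the 5 with Y-linked signal 8.36 to 9.52, with no overlap. In 3bKI (second normalization) the 2 arrays with high Xist gave 8.48 and 8.96 and the 3 others 6.48 to 7.29. In 1KI (7.40 to 10.71 and 6.37 to 10.75) and wt (9.81 to 11.07 and 9.69 to 10.63) the ranges overlapped. Acot4 had differences of the same sign between the means, 0.77 in 1KI, 0.65 in 3aKO and 0.20 in wt. In 3bKI the 2 arrays with high Xist gave 8.67 and 8.70 for Acot4 and the 3 others 7.73 to 8.07. The 1KI arrays with Y-linked signal include replicate 6, the array with the high 3' minus 5' difference, which had the lowest Acot4 (6.63) and Acot3 (6.37). With a sex index as a covariate the change of Acot3 in 1KI against wt was -1.45 (adjusted p = 0.00277).

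Vnn1 encodes vanin 1, a pantetheinase that recycles vitamin B5 and is used as a marker of PPAR alpha activity. It gave 7.56 to 10.35 (median 9.31) in 1KI, 8.31 to 10.21 (median 9.20) in 3aKO and 8.66 to 10.14 (median 9.61) in wt. The 1KI arrays again spread the most (SD 1.01 in 1KI, 0.61 in 3aKO and 0.43 in wt). Its log2 changes of -0.44 ± 0.28 (1KI against wt, adjusted p = 0.254), -0.18 ± 0.30 (1KI against 3aKO, 0.694) and -0.27 ± 0.28 (3aKO against wt, 0.756) did not pass. The second probe set (1447845_s_at) had a change of -0.38 ± 0.28 in 1KI against wt and did not pass either.

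Fgf21, the hormone gene of the fasted liver, gave 6.11 to 7.81 (median 6.58) in 1KI, 5.89 to 7.08 (median 6.34) in 3aKO and 5.73 to 7.84 (median 6.58) in wt. The 3 groups overlapped, and the log2 change in 1KI against wt was 0.00 ± 0.22 (SE, adjusted p = 0.998). Against 3aKO the 1KI livers had a change of 0.31 ± 0.23 (adjusted p = 0.335), and the 3aKO livers had one of -0.31 ± 0.22 against wt (adjusted p = 0.614).

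Angptl4 encodes a secreted inhibitor of lipoprotein lipase, the enzyme that takes fat out of circulating lipoproteins. It rose in 1KI against both wt and 3aKO. It gave 9.67 to 11.14 (median 11.05) in 1KI, 9.72 to 10.62 (median 10.13) in 3aKO and 9.83 to 10.68 (median 10.35) in wt. All 1KI arrays except replicates 1 (9.67) and 6 (10.60) lay above the highest wt and 3aKO arrays. Angptl4 rose by 0.56 ± 0.14 (log2 change ± SE, 1.47-fold) in 1KI against wt (limma, adjusted p = 0.00235) and by 0.71 ± 0.14 (1.64-fold) in 1KI against 3aKO (adjusted p = 0.000229). Both calls held in all 32 fits that left out 1 array, and without 1KI replicate 1 the changes were 0.69 and 0.85. Within the high hybridization control level the 1KI change against wt was 0.46 (adjusted p = 0.317, not passed). Both wt arrays at that level (10.55 and 10.28) lay below 9 of the 10 1KI arrays. The call against 3aKO ended under that block too (0.59, adjusted p = 0.306), where no 3aKO array shares the 1KI level. In 3aKO against wt the change was -0.15 ± 0.14 (adjusted p = 0.698). The second Angptl4 probe set (1453410_at) stayed between 2.72 and 3.39 in all arrays of the first normalization, near the lowest values of the arrays, and gave a change of 0.08 ± 0.06 in 1KI against wt (adjusted p = 0.305).

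Pdk4 encodes a kinase that shuts pyruvate out of the mitochondrial citrate cycle when fat is burnt. It gave 4.89 to 6.84 (median 5.99) in 1KI, 4.82 to 6.19 (median 5.27) in 3aKO and 5.18 to 6.50 (median 5.50) in wt. The 1KI arrays were high as a group but overlapped the others, with 9 of 10 above the wt and the 3aKO mean and replicate 6 (4.89) below both. Pdk4 rose by 0.78 ± 0.19 (log2 change ± SE, 1.72-fold) in 1KI against 3aKO (adjusted p = 0.0021), a call that held in all 32 fits without 1 array and ended when blocked on hybridization control level (0.72, adjusted p = 0.375). In 1KI against wt the change was 0.45 ± 0.18 (adjusted p = 0.0691), and it passed without 1KI replicate 6 (0.58, adjusted p = 0.0101) and without wt replicates 3 or 11. Muscle, a tissue rich in Pdk4, was marked in 1KI replicate 4, where Pdk4 stood at 6.81. Without that array the change was 0.36 against wt (adjusted p = 0.144) and 0.70 against 3aKO (adjusted p = 0.0057). In 3aKO against wt it was -0.33 ± 0.18 (adjusted p = 0.48).

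Counted over the 9 genes in 3aKO against wt, 0 passed, against 0.176% of all genes tested (limma, either direction), and 2 (Acot1 and Acot4) had an unadjusted p under 0.05, against 11.9% of all genes. The median log2 change was -0.33 for the 9 genes and -0.01 for all genes, with Ppara the single gene of positive sign. In 1KI against wt, 1 rose (Angptl4), against 10.2% of all genes, 1 fell (Acot3), against 17.5%, and 7 did not pass. Here the median was -0.15 for the 9 genes and -0.05 for all. The genes were chosen with changes against these same wt livers known. Their counts and medians against wt are therefore not independent of that choice. In 1KI against 3aKO, 3 rose (Angptl4, Pdk4 and Acot1), against 11.9% of all genes, 1 fell (Ppara), against 19.0%, and 5 did not pass. The medians were 0.06 for the 9 genes and -0.03 for all. Both 1KI comparisons use the same 1KI arrays. Against wt, 1850 of all genes rose and 3176 fell, and 2331 and 2333 did after a further quantile normalization or 1578 and 4321 with equal array medians. Against 3aKO, 2174 rose and 3462 fell, and 2831 and 2807 did after that quantile normalization or 1731 and 4494 with equal array medians. No member call of either comparison turned direction under these scalings.

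**Figure D2:**
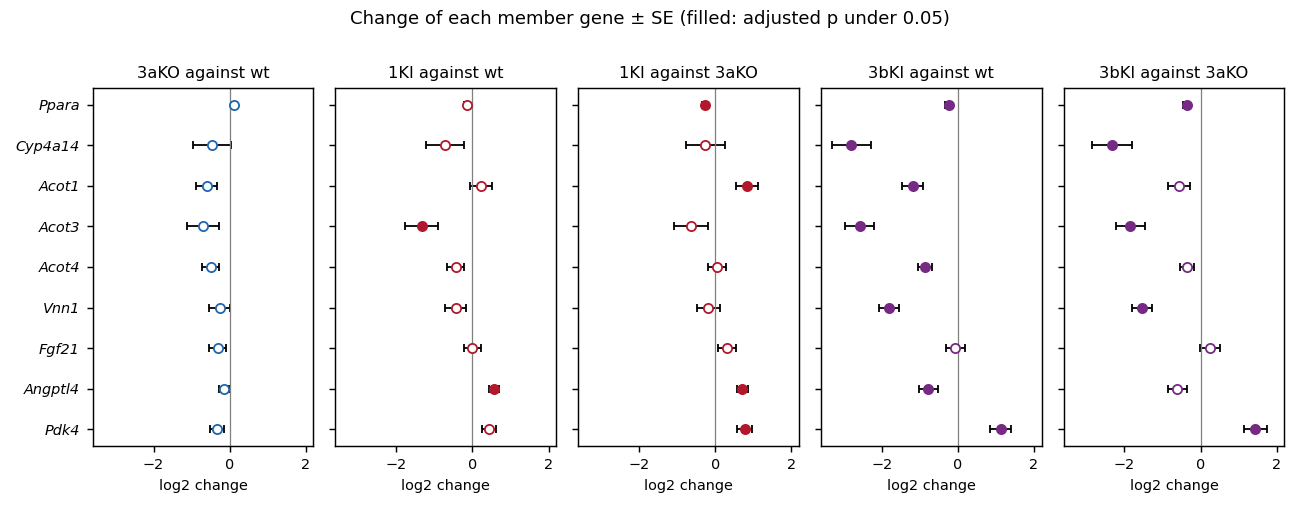
Log2 change ± SE (x axis) of the 9 genes in each of the 5 comparisons, filled where the adjusted p was under 0.05. The 3bKI panels are descriptions, since these changes were known when the genes were chosen. Acot3 and Cyp4a14 lie farthest to the left in 3bKI and Pdk4 to the right.

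In 3bKI livers, given as a description, 7 of the 9 genes were past the threshold on the low side and Pdk4 on the high side against wt, where 15.9% and 13.4% of all genes were. The threshold is a limma adjusted p under 0.05, used here as a cut-off only. The genes were chosen with these changes known, so the counts follow in part from that choice. Cyp4a14 gave 8.77, 7.20, 8.96, 10.42 and 7.58 in 3bKI replicates 1 to 5, against 9.88 to 12.36 (median 11.33) in wt. Of the 3bKI arrays, replicate 4 reached into the wt range and the other 4 lay below it. The mean was 8.59 ± 1.27 in 3bKI and 11.38 ± 0.80 in wt (SD), a 6.94-fold difference. Acot3 gave 8.48, 7.29, 8.96, 6.98 and 6.48 in 3bKI, against 9.55 to 11.00 (median 10.03) in wt, so that every 3bKI array lay below every wt array. Its log2 change was -2.58 ± 0.37 (SE). Vnn1 gave 7.61, 7.36, 8.44, 8.06 and 7.04 in 3bKI, against 8.64 to 10.10 (median 9.55) in wt, again without overlap, with a change of -1.81 ± 0.26. Its second probe set had a change of -1.76 ± 0.26. Without overlap on the low side stood 2 of the 9 genes, against 4.47% of all genes.

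Acot1 gave 6.70, 6.63, 6.95, 6.97 and 7.63 in 3bKI, against 7.18 to 8.96 (median 8.23) in wt, a log2 change of -1.18 ± 0.28 (SE). Acot4 gave 8.67, 7.89, 8.70, 8.07 and 7.73 in 3bKI, against 8.64 to 9.53 (median 9.09) in wt, a change of -0.87 ± 0.19. For Acot1 only replicate 5 and for Acot4 only replicates 1 and 3 reached into the wt range. The second Acot4 probe set had a change of -1.61 ± 0.17, with 6.82 to 7.75 in 3bKI and 8.48 to 9.33 in wt. Ppara gave 11.33, 11.32, 10.97, 11.64 and 11.13 in 3bKI, against 11.31 to 11.74 (median 11.55) in wt, a change of -0.24 ± 0.09. Its other probe sets had changes of -0.41 ± 0.09 (1439675_at) and -0.12 ± 0.09 (1457721_at). The change of Ppara was no longer past the threshold without 3bKI replicates 3 (-0.17) or 5 (-0.21) or wt replicate 3.

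Angptl4 gave 10.40, 10.18, 7.75, 9.97 and 9.23 in 3bKI, against 9.90 to 10.65 (median 10.30) in wt, a log2 change of -0.77 ± 0.25 (SE). Replicates 1, 2 and 4 lay within the wt range and replicates 3 and 5 below it. Without replicate 3 the change was -0.34 and not past the threshold, and without replicate 5 it was -0.71 and not past it. Pdk4 gave 7.60, 5.23, 6.89, 5.95 and 7.94 in 3bKI, against 5.16 to 6.51 (median 5.49) in wt, a change of 1.12 ± 0.29. Replicates 1, 3 and 5 lay above every wt array and the other 2 within the wt range. Fgf21 gave 6.22, 6.39, 6.84, 6.03 and 6.73 in 3bKI, against 5.53 to 7.66 (median 6.42) in wt, a change of -0.07 ± 0.26. It is the gene of the 9 that was not past the threshold. The median change was -0.87 for the 9 genes and 0.00 for all genes.

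**Figure D3:**
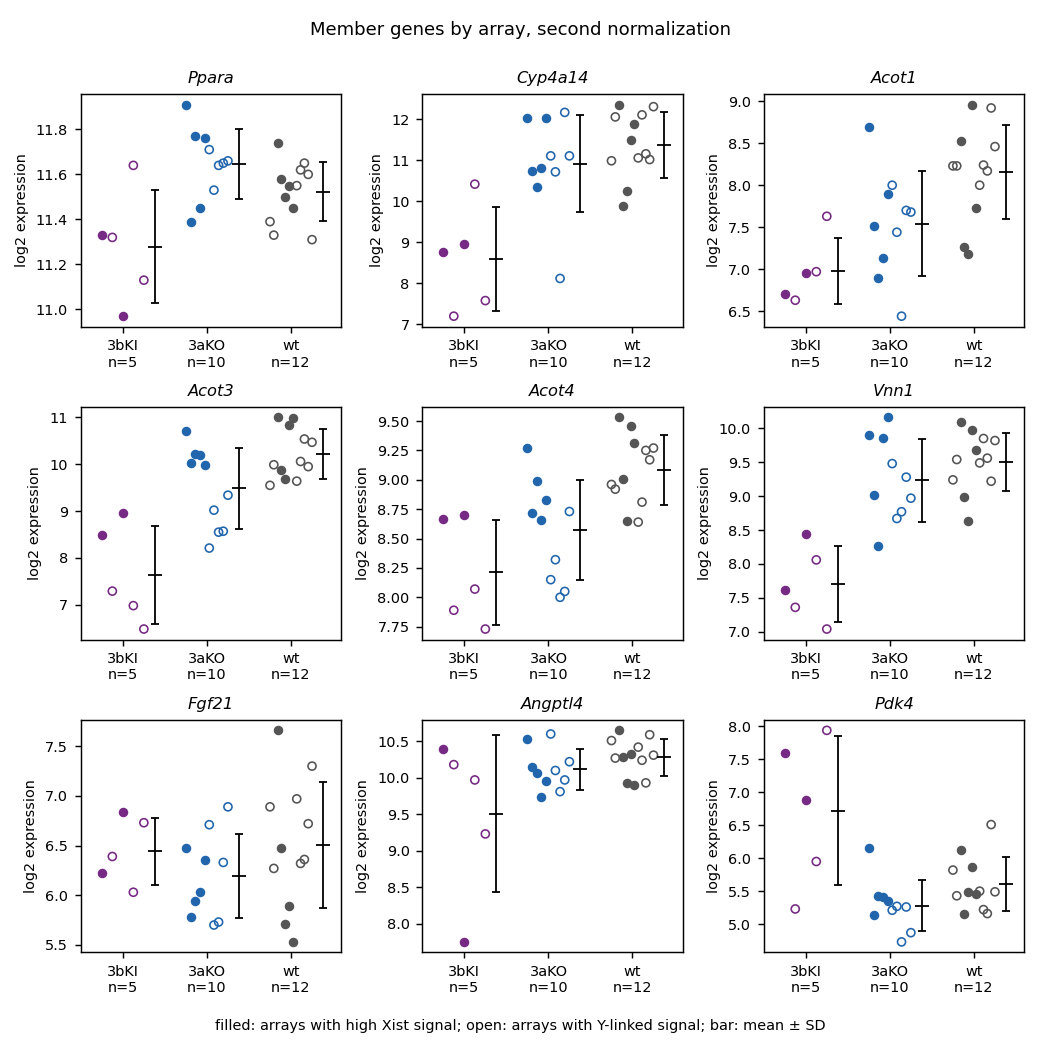
Log2 expression of the 9 genes by array in the second normalization (y axis), for 5 3bKI, 10 3aKO and 12 wt livers. Points are arrays, filled for high Xist and open for Y-linked signal, and bars give mean ± SD. Acot3 and Vnn1 show no overlap between 3bKI and wt, whereas for Angptl4 replicate 3 (7.75) stands apart from the other 3bKI arrays.

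Against 3aKO the same 3bKI arrays had 4 genes past the threshold on the low side (Cyp4a14, Acot3, Vnn1 and Ppara) and Pdk4 on the high side, where 17.7% and 16.5% of all genes were, and 0 without overlap on the low side, where 6.74% of all genes were. Cyp4a14 gave 8.12 to 12.17 (median 10.97) in 3aKO and had a log2 change of -2.34 ± 0.52 (SE). Acot3 (8.21 to 10.72 in 3aKO) had one of -1.85 ± 0.39, Vnn1 (8.26 to 10.16) one of -1.53 ± 0.26 and Ppara (11.39 to 11.91) one of -0.37 ± 0.09. Pdk4 (4.73 to 6.16 in 3aKO) had a change of 1.44 ± 0.30. Acot1 (-0.56 ± 0.28), Acot4 (-0.36 ± 0.19), Angptl4 (-0.61 ± 0.25) and Fgf21 (0.25 ± 0.26) were not past the threshold. The change of Angptl4 was -0.17 without 3bKI replicate 3, and it was past the threshold without replicates 1 (-0.83), 2 (-0.78) or 4 (-0.72). Acot1 was past it without 3aKO replicate 8 (-0.69). The second Acot4 probe set had a change of -1.28 ± 0.18. The median was -0.56 for the 9 genes and 0.02 for all genes. Over all genes 3002 were past the threshold on the high and 3216 on the low side against 3aKO (2433 and 2885 against wt), and with equal array medians 2006 and 4042 (1742 and 3693 against wt). Beside these changes, the 3bKI arrays differed from both other groups in the poly-A controls, the hybridization controls and the 3' minus 5' difference, as given above, and the part of these in the changes was not tested. Within the high hybridization control level (5 3bKI arrays against wt replicates 1 and 2) the log2 changes were -2.94 for Cyp4a14, -2.13 for Acot3, -1.69 for Vnn1, -1.25 for Acot1, -0.73 for Acot4, -0.88 for Angptl4, -0.08 for Ppara and 1.10 for Pdk4, of which Cyp4a14, Acot3 and Vnn1 were past the threshold.

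**Figure D4:**
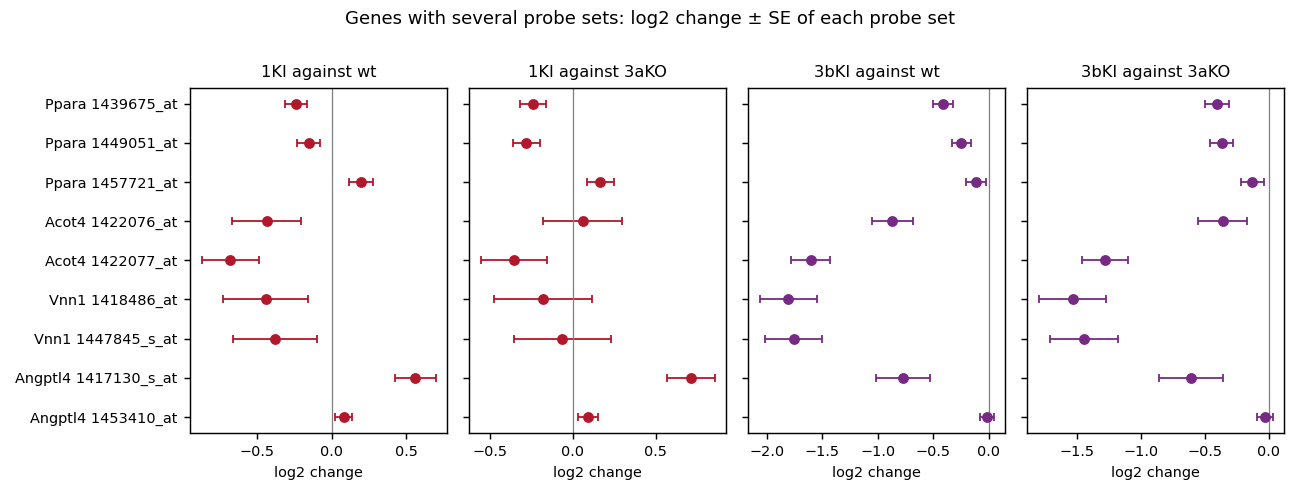
Log2 change ± SE (x axis) of each probe set of the 4 genes that have several, in the knock-in comparisons. The main probe sets are 1449051_at for Ppara, 1422076_at for Acot4, 1418486_at for Vnn1 and 1417130_s_at for Angptl4. Ppara probe sets lie on both sides of 0 in 1KI against wt, and those of Vnn1 lie together.

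Of 18 measured partners and regulators of the receptor, in 1KI against wt 5 rose, against 10.2% of all genes, 2 fell, against 17.5%, and 11 missed the threshold. Blocked on hybridization control level 1 rose and 0 fell, or 1 and 1 with the sex index added (limma). Ppard, the gene of the related receptor PPAR delta, rose by 0.45 ± 0.07 (log2 change ± SE, limma, adjusted p = 8.65e-06), with means of 6.85 ± 0.12 in 1KI and 6.40 ± 0.22 in wt (SD). The retinoid X receptor gene Rxrg fell by 0.50 ± 0.08 (adjusted p = 6.21e-06). Lpin1, which encodes a coactivator and phosphatidate phosphatase, rose by 1.29 ± 0.24 (adjusted p = 0.000129), and the hepatocyte factor gene Hnf4a by 0.22 ± 0.05 (adjusted p = 0.000599). The median of the list was 0.03. Against 3aKO 6 rose, against 11.9% of all genes, and 4 fell, against 19.0%. In 3aKO against wt 1 rose (Ppargc1a) and 0 fell, where 0.176% of all genes passed in either direction. In 3bKI, again as a description, 3 were past the threshold on the high and 5 on the low side against wt, where 13.4% and 15.9% of all genes were. Against 3aKO these were 3 and 9, where 16.5% and 17.7% of all genes were. The changes against wt were 1.20 ± 0.25 for Ppard and -0.81 ± 0.34 for Lpin1.

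Of 15 measured genes of fatty acid uptake, activation and storage, in 1KI against wt 2 rose, against 10.2% of all genes, 1 fell, against 17.5%, and 12 missed the threshold. All 3 calls ended when blocked on hybridization control level. The lipase gene Pnpla2 rose by 0.46 ± 0.07 (limma, adjusted p = 1.62e-05) and Plin5, which encodes a lipid droplet protein, by 0.46 ± 0.14 (adjusted p = 0.0121), whereas the transporter gene Slc27a5 fell by 0.28 ± 0.08 (adjusted p = 0.00912). In 3bKI against wt 1 was past the threshold on the high and 4 on the low side, where 13.4% and 15.9% of all genes were. Among the 4 were Acsl4, an acyl-CoA synthetase gene (-1.03 ± 0.15), and Plin5 (-0.45 ± 0.16). In 1KI against 3aKO 2 rose and 2 fell, where 11.9% and 19.0% of all genes did. In 3bKI against 3aKO 2 were past the threshold on the high and 4 on the low side, where 16.5% and 17.7% of all genes were. In 3aKO against wt 0 of 15 passed (limma), with 1 at an unadjusted p under 0.05.

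Among 31 other measured targets of the receptor, in 1KI against wt 3 rose, against 10.2% of all genes, 7 fell, against 17.5%, and 21 missed the threshold, with a median log2 change of -0.07. Blocked on hybridization control level 0 rose and 1 fell, or 1 and 0 with the sex index added (limma). The thiolase genes Acaa1a, of peroxisomes, and Acaa2, of mitochondria, fell by 0.40 ± 0.06 (limma, adjusted p = 5.79e-06) and 0.23 ± 0.05 (adjusted p = 0.000513). The reductase gene Decr2 fell by 0.41 ± 0.08 (adjusted p = 0.000122) and Pex11a, which encodes a factor of peroxisome division, rose by 0.50 ± 0.10 (adjusted p = 0.000317). In 3bKI against wt 1 was past the threshold on the high and 19 on the low side, where 13.4% and 15.9% of all genes were, with a median of -0.31 against 0.00 for all genes, and Acaa1a (-0.56 ± 0.05), Decr2 (-0.59 ± 0.10), Acaa2 (-0.23 ± 0.04) and Pex11a (-0.33 ± 0.11) were among the 19. In 3bKI against 3aKO these were 1 and 15, where 16.5% and 17.7% of all genes were. In 1KI against 3aKO 3 rose and 4 fell, where 11.9% and 19.0% of all genes did. In 3aKO against wt 0 of 31 passed (limma), with 3 at an unadjusted p under 0.05. These lists were chosen with earlier results of the arrays known.

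Clock genes were counted because several targets of the receptor cycle over the day. Of 15, 5 rose, against 10.2% of all genes, and 2 fell, against 17.5%, in 1KI against wt. The median log2 change was -0.08, against -0.05 for all genes. All 7 calls ended when blocked on hybridization control level. The 4 genes named here are those with the smallest p, and all of them rose. Without that block Per1 was up by 0.62 ± 0.14 (limma, adjusted p = 0.00119), Ciart by 0.94 ± 0.23 (adjusted p = 0.00279), Cry2 by 0.34 ± 0.07 (adjusted p = 0.000161) and Clock by 0.32 ± 0.09 (adjusted p = 0.0068). Against 3aKO 5 rose and 2 fell in 1KI as well, where 11.9% and 19.0% of all genes did. In 3bKI 4 were past the threshold on the high and 7 on the low side against wt, where 13.4% and 15.9% of all genes were, with a median of -0.67. Against 3aKO these were 4 and 8, where 16.5% and 17.7% of all genes were. Per1 had a change of -0.80 ± 0.28 against wt and Clock one of 0.43 ± 0.10. In 3aKO against wt 0 of 15 passed (limma), with 0 at an unadjusted p under 0.05. The part of collection time and feeding in the values of the 9 genes was not tested.

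By Pearson's r within a genotype, relations with Cyp4a14 passed for Vnn1 in wt, Acot1 in 3aKO, and Acot1, Acot3 and Acot4 in 1KI. By Spearman's rho only that of Vnn1 in wt passed, and no relation of Ppara passed by either. The share of all genes that are as closely related to Cyp4a14 was not counted. The 8 other genes were set against Cyp4a14 in each of 3 genotypes of the first normalization, 24 relations in all, by 2-sided permutation tests (100000 resamples). In wt (n = 12) Vnn1 followed Cyp4a14 with Pearson's r = 0.86 (permutation p = 0.00042, adjusted p = 0.0081) and Spearman's rho = 0.874 (permutation p = 0.00049, adjusted p = 0.012), and r was 0.819 without the 2 arrays farthest from the Cyp4a14 median. In 1KI (n = 10) r was 0.863 for Acot1, 0.848 for Acot4 and 0.831 for Acot3 (permutation p = 0.0013, 0.00097 and 0.0011, adjusted p = 0.0081 for each). Their rho values of 0.745, 0.77 and 0.77 did not pass after adjustment (permutation p = 0.017, 0.013 and 0.013, adjusted p = 0.067, 0.062 and 0.062). Without the 2 farthest 1KI arrays, replicates 1 and 6, r was 0.586, 0.725 and 0.732. Replicate 6 is the array with the high 3' minus 5' difference. In 3aKO (n = 10) r was 0.835 for Acot1 (permutation p = 0.0031, adjusted p = 0.015; rho 0.796, permutation p = 0.008, adjusted p = 0.062), and 0.85 without the 2 farthest. About the means of the arrays with high Xist and with Y-linked signal, r was between 0.834 and 0.872 for these 5 relations. For Ppara r was -0.031 in 1KI (permutation p = 0.94), 0.287 in 3aKO (permutation p = 0.43) and -0.145 in wt (permutation p = 0.65), and the relations of Fgf21 and Pdk4 did not pass in any genotype. Angptl4 in 1KI had r = 0.781 (permutation p = 0.016, adjusted p = 0.062), which was 0.031 without the 2 farthest arrays, so it rests on 1KI replicates 1 and 6.

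**Figure D5:**
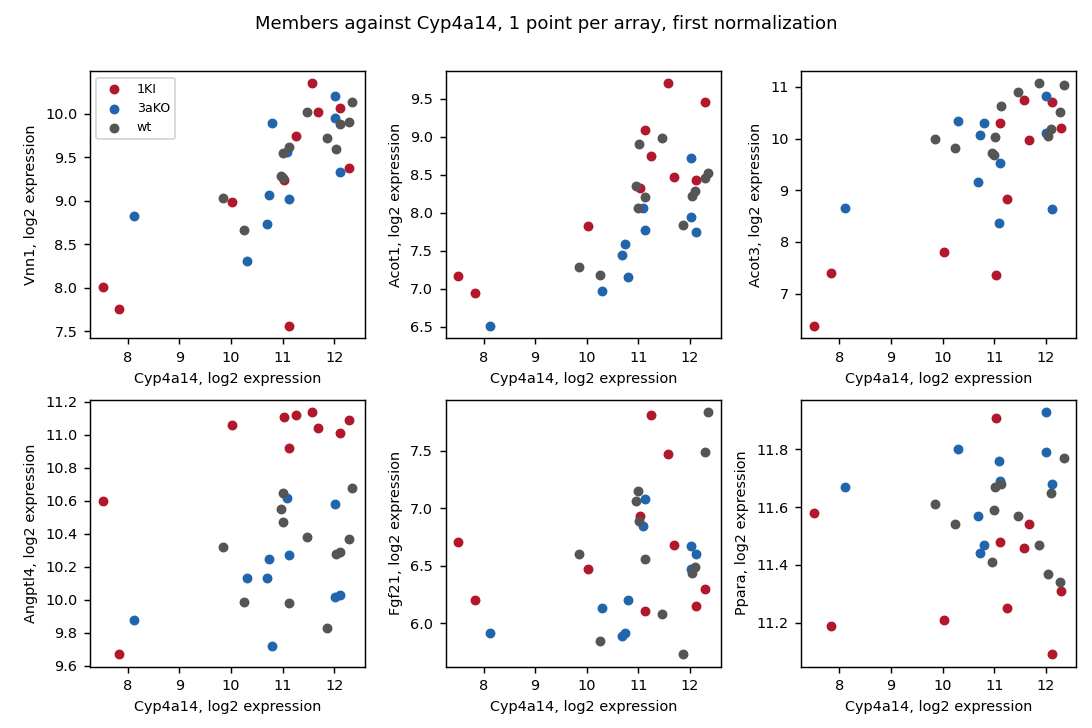
Log2 expression of 6 genes (y axes) against Cyp4a14 (x axes), with 1 point per array of the first normalization and colours for 1KI, 3aKO and wt. Vnn1, Acot1 and Acot3 are low in 1KI replicates 1 and 6, which have the least Cyp4a14. In 3aKO replicate 8, lowest in Cyp4a14, Acot1 (6.51) is the lowest of its group, and Vnn1 (8.83) and Acot3 (8.65) are not. No relation of Ppara passed.

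Among the thioesterases Acot3 and Acot4 were the closest pair in each genotype. This family of 9 relations between the thioesterases was added after the data were seen. In 1KI (n = 10) r was 0.926 (permutation p = 1e-05, the smallest that the resamples can give, adjusted p = 9e-05) and both genes put the 10 livers in the same order (rho = 1.0). In 3aKO (n = 10) r was 0.938 (permutation p = 0.00013, adjusted p = 0.00057; rho 0.867, permutation p = 0.0023, adjusted p = 0.0069), and in wt (n = 12) 0.892 (permutation p = 0.00019, adjusted p = 0.00057; rho 0.867, permutation p = 0.0006, adjusted p = 0.0027). Without the 2 farthest arrays r was 0.994 in 1KI, 0.925 in 3aKO and 0.87 in wt. Acot1 was related to Acot3 and Acot4 in 1KI (r = 0.823 and 0.78, permutation p = 0.0039 and 0.0041, adjusted p = 0.0074 for both). In 3aKO (0.238 and 0.423) and wt (0.344 and 0.528) its r did not pass, and the difference between genotypes was not tested. The genes are neighbours of the same family, and whether the probe set of one detects the RNA of another was not tested. This includes 1422925_s_at, the only probe set of Acot3, so the close relation of Acot3 and Acot4 may not be that of separate transcripts.

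Over the 32 arrays of the first normalization, as deviations from the genotype means, the genes outside the group most like Cyp4a14 were the aldehyde dehydrogenase gene Aldh3a2 (r = 0.767), the carnitine transporter gene Slc22a5 (0.755), the acyl-CoA dehydrogenase gene Acadm (0.753), the thioesterase gene Acot2 (0.752) and Ehhadh, a peroxisomal enzyme gene (0.748). Without 1KI replicate 6 these were 0.715, 0.715, 0.669, 0.777 and 0.691. Within the group Acot1 (0.796), Vnn1 (0.703), Acot4 (0.689) and Acot3 (0.666) came closest, and Ppara was at 0.027. The genes most like Ppara were the autophagy kinase gene Ulk1 (0.73), Bbs7 (0.711), Spata2l (0.706), Lmbr1l (0.69) and Cecr2 (0.671). The points share library and hybridization, and the correlations are descriptions with no test.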

How the data were processed

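The deposited log2 expression values of 45101 probe sets had been normalized by the authors before deposit; how is not stated in the labels. The log base was read from the values, which run from 2.13 to 15.06. The 59 columns hold 37 arrays. The 22 shared arrays correlated at 0.9993 or more between the normalizations, and no array was a copy of another (highest correlation 0.9971). Probe sets were named through the platform annotation: 34945 carried 1 symbol, 932 several, 9160 none, and 64 were controls. By Entrez ID 34741 matched RefSeq (GRCm38.p6).

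Each of 18193 genes was taken at its probe set with the highest mean. The models (lmFit and eBayes of limma 3.58.1, R 4.3.3) ran over all arrays of a normalization, with Benjamini-Hochberg adjustment over all genes at 0.05 and no filter on low signal. SEs are moderated. Restricted to genes above the median signal, 7 of the 9 genes were tested (not Fgf21 and Pdk4). Correlations used numpy 2.4.6 and scipy 1.17.1 in Python 3.11.15, with 24 relations since Cyp4a10 had no probe set of its own. The fits and permutation tests were tested on simulated data.

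The hybridization control level came from 18 probe sets (high where an array reached the lowest knock-in array), the poly-A level from 24, and the sex index is Xist minus Y-linked signal. The members, lists and tests were chosen with earlier results of these data known. Genes outside the group were named by a fixed rule, up to 4 of each list with the smallest p in 1KI against wt and the 5 most like Cyp4a14 and Ppara. Alternatives changed 1 choice at a time, except a fit that took the hybridization control level and the sex index together: the groups fitted, the variance trend, the filter, the probe sets, the scaling, array weights, the sex index, RNA integrity, the hybridization control level, the replicate number and each array left out. The number of arrays limits the precision.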

Additional observations from a re-analysis of the deposited data

Results flagged for a closer look

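Of 27 groups of values looked at (9 genes in 1KI, 3aKO and wt), 4 had a sample set far apart from the others by Dixon's criterion, which chance alone meets in about 1 of 20 groups. Angptl4 in 1KI replicate 1 was the lowest of its group at 9.67, 0.93 from the next array, a gap of 0.633 of the range. Acot4 in 1KI replicate 6 was the lowest at 6.63, 1.56 from the next (0.549 of the range), in the array with the 3' minus 5' difference of 1.75. Cyp4a14 in 3aKO replicate 8 was the lowest at 8.12, 2.18 from the next (0.546 of the range). Pdk4 in 3aKO replicate 1 was the highest at 6.19, 0.70 from the next (0.511 of the range).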

How the results depend on the processing

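The number of the 9 genes called in 1KI against wt was 2, with 4 under array weights and 0 when blocked on hybridization control level, whether or not the sex index was added. In 1KI against 3aKO it was 4, and 0 with that block, with or without the sex index. In 3bKI against wt 8 were past the threshold, with 5 when RNA integrity was a covariate, 3 with that block and 4 with block plus sex index. In 3bKI against 3aKO 5 were past it, with 1 when RNA integrity was a covariate, 0 blocked and 1 with block plus sex index. Only 2 wt arrays share the high level with the knock-ins, and the cause of these losses was not tested. Leaving out 1 array gave 0 of 9 in 3aKO against wt, 2 to 3 in 1KI against wt, 3 to 4 in 1KI against 3aKO, 6 to 8 in 3bKI against wt and 5 to 6 in 3bKI against 3aKO. In 1KI against wt the calls of Angptl4 and Acot3 held in 12 of 14 other settings. The call of Acot1 in 1KI against 3aKO held in 10 of 14, and ended also when only the groups compared were fitted and with the replicate number as a block. Changes that did not pass turned sign for Fgf21 in 1KI against wt (-0.027 with equal array medians, -0.067 with the block, and -0.12 to 0.11 with 1 array left out), Ppara in 1KI against wt (0.012 with the block, 0.0315 with block plus sex index), Fgf21 in 3bKI (against wt -0.166 to 0.0384 with 1 array left out, against 3aKO -0.034 with RNA integrity as a covariate), Acot4 in 1KI against 3aKO (-0.15 with its probe sets averaged, -0.029 to 0.287 with 1 array left out) and Cyp4a14 in 1KI against 3aKO (0.0064 with array weights, -0.566 to 0.0909 with 1 array left out). With RNA integrity as a covariate Cyp4a14 stood at -4.92 in 3bKI against wt and Acot1 at -2.17. With the hybridization block, calls over all genes fell to 782 (1KI) and 1583 (3bKI) against wt, in place of 5026 and 5318, and to 417 (1KI) and 1232 (3bKI) against 3aKO, in place of 5636 and 6218, and with RNA integrity as a covariate 605 and 116 in 3bKI against wt and 3aKO. In the lists of partners, uptake genes, other targets and clock genes 0 passed in 1KI against 3aKO with that block, and in 3bKI against wt the other targets on the low side numbered 11, or 6 with RNA integrity, in place of 19. Calls over all genes in 3aKO against wt were 15 with the block, 307 with array weights and 16 to 61 with 1 array left out, in place of 32. The samples share only a replicate number: same-numbered arrays correlated between -0.335 and 0.344 in 3aKO and wt (6 of 10 pairs over 0.1, 1 closest to its own number), between -0.345 and 0.278 in 1KI and wt (4 over 0.1, 4 closest), between -0.084 and 0.383 in 1KI and 3aKO (7 over 0.1, 5 closest), between -0.251 and 0.321 in 3bKI and wt (2 of 5 over 0.1, 2 closest) and between -0.286 and 0.339 in 3bKI and 3aKO (1 over 0.1, 0 closest). With the replicate block 0 of the 9 genes passed in 3aKO against wt (14 of all genes). Against wt 3 passed in 1KI (4614 of all genes) and 6 in 3bKI (4282), and against 3aKO 3 in 1KI (5695) and 6 in 3bKI (6101).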
